A study of Mus musculus with 24 samples.

Results

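The genes described here encode the machinery that fuses a synaptic vesicle with the presynaptic membrane. They were chosen by name: every probe set annotated with exactly 1 symbol of the synaptotagmin (Syt), SV2 (Sv2), Snap, syntaxin (Stx), Vamp, synapsin (Syn), complexin (Cplx), Rab3, Stxbp, Munc13 (Unc13) or RIM (Rims) series was a candidate, and the brightest probe set over all 24 arrays stood for each gene. This gave 68 of the 18193 genes so named, drawn from 163 of the 45101 probe sets on the array. Of the 68, 64 were bright enough to be tested and 4 were not. The name pattern also took in Snap91, a clathrin adaptor that shares only the prefix, and SNAREs known mainly from the Golgi, endosome, endoplasmic reticulum or other tissues; these are described apart.

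The 24 arrays are Affymetrix mouse expression arrays of total RNA, and their values are intensity units. A/J and C57BL/6J, both inbred strains, were crossed and their descendants selected on contextual fear conditioning, in which a mouse freezes in a place where it was shocked. The 4 groups of 6 arrays were hippocampus of low freezing animals, hippocampus of high freezing animals, amygdala of low freezing animals and amygdala of high freezing animals, so all groups share the same cross. Age, sex and the generation of selection are not given in the sources used here, nor do the labels state if each array was made from a single animal or a pool. The p-values therefore cover only how far these arrays scatter, which may be technical in part. The number of arrays, 6 per group, limits the precision.

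Release runs through a fixed order of steps. RIM and Rab3 proteins hold a vesicle at the active zone, Munc13 opens the target syntaxin to prime it, and Munc18 proteins guide the assembly of the SNARE bundle from a vesicle SNARE (a Vamp), a syntaxin and a Snap25-type protein. Complexins bind the assembled bundle, and a synaptotagmin on the vesicle senses calcium and triggers fusion. Synapsins tether the reserve of vesicles, and tomosyn and amisyn (Stxbp5 and Stxbp6) occupy SNAREs without driving fusion. Most steps are served by several paralogs that differ between kinds of neurons.

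RefSeq promoter windows of assembly GRCm38.p6, from 250 bases before to 50 bases after a transcript start, were found for 54 of the 68 genes, 70 windows in all. Shown here are the windows of the 3 Munc13 paralogs, because these genes stood furthest apart between the regions, and those of Stxbp3 and Syn1, because among these 54 genes they were the ones whose window holds a full cyclic AMP response element and they differed between the regions in opposite directions. Each window is written 5′ to 3′ in the gene's direction, and capitals mark a cyclic AMP response element (TGACGTCA) or a part of RE1, the binding element of the neuronal repressor REST (left part TTCAGCACC, right part GGACAGCG), on either strand.
Unc13a, chr8:71671708-71672007, minus strand: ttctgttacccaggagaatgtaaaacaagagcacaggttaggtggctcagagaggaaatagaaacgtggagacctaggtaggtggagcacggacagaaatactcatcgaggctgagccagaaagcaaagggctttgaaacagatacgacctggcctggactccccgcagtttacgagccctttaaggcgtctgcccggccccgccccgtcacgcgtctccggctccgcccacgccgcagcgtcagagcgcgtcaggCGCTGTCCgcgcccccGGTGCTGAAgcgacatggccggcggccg
Unc13b, chr4:43058703-43059002, plus strand: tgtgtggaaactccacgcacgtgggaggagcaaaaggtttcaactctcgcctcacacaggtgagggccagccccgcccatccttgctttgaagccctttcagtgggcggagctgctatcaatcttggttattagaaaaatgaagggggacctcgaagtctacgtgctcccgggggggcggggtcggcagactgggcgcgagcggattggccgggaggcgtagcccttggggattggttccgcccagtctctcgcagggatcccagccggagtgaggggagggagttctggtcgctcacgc
Unc13c, chr9:73968988-73969287, minus strand: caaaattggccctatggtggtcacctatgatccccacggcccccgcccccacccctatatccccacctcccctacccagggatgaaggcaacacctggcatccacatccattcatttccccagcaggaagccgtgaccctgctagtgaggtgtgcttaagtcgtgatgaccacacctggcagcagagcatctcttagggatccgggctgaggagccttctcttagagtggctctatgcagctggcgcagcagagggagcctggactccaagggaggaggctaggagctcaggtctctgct
Stxbp3, chr3:108840453-108840752, minus strand: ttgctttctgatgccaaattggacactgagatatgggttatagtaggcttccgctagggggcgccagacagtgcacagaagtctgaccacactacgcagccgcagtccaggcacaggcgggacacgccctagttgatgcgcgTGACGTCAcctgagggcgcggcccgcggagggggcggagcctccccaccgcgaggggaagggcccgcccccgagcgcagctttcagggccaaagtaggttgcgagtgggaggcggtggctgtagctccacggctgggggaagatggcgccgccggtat
Syn1, chrX:20920869-20921168, minus strand: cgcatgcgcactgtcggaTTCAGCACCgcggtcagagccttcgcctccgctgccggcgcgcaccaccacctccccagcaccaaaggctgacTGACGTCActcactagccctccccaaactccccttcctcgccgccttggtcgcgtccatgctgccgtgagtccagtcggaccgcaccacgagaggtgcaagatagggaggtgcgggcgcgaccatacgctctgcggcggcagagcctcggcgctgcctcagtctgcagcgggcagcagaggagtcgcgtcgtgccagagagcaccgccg

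The Unc13a and Unc13b windows were rich in CpG, with 27 and 20 CpG dinucleotides, whereas the Unc13c window held 6. The median was 19 over the 70 member windows and 7 over all 32851 windows. Median GC content was 62.2% over member windows and 52.7% over all. Windows of members higher in the amygdala and of members lower there both had a median of 19 CpG. The cyclic AMP response element begins 108 bases before the Stxbp3 start and 159 before the Syn1 start; 2 of 70 member windows held it (2.86%), against 1.79% of all windows. The left part of RE1 was in 2 member windows, those of Syn1 and Unc13a (2.86%, against 0.371%), and the right part in 4 windows of 3 genes, Stx5a, Syt6 and Unc13a (5.71%, against 1.26%). Unc13a holds both RE1 parts after its start, on the opposite strand and 8 bases apart. The GC box GGGCGG was in 46 member windows (65.7%, against 35.7%) and the TATA box TATAAA in 5 (7.14%, against 13.6%), both searched on either strand; none of these patterns contains another. These matches describe letters only.

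Each region was checked against its marker genes. Of 8 markers of dentate and CA neurons, 7 were lower in the amygdala arrays, and all 7 tested markers of central amygdala and striatum were higher there. Isl1, of the latter, was near 0 in the hippocampus (0.389 to 9.52 units). Of 3 tested markers of the basolateral amygdala, 2 (Rspo2 and Lmo3) were lower on the amygdala arrays and 1 (Otof) was higher, so the amygdala label rests here on central and striatal markers. Among the latter, Prkcd and Penk ran apart within the amygdala. On high freezing array 7 Prkcd was lowest (319 units) and Penk was at 4738.5. On high freezing array 12 Prkcd was highest (2284.5) and Penk lowest (1641). The amygdala arrays also carried more of the 5 choroid plexus markers (5 higher; sums of 1860 to 13340 units in the hippocampus and 14060 to 20580 in the amygdala) and of the 5 thalamic and hypothalamic ones (4 higher; 235 to 471 and 843 to 2728). Arrays of a group correlated between 0.969 and 0.983 across probe sets. The 3'/5' ratio of control probes, which rises as RNA degrades, was 0.736 to 0.882 for Gapdh in the hippocampus and 0.764 to 0.896 in the amygdala, and 1.52 to 1.98 and 1.71 to 2.1 for actin.

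Between the amygdala and the hippocampus, the release genes did not move as a block. In 8 of the 10 families with more than 1 tested member, called paralogs stood on both sides; the called Rab3 genes and synapsins were all lower. Of the 64 tested, 46 (71.9%) differed at an adjusted p under 0.05 in a limma model over all arrays, where 51.2% of all probe sets did so. Of these, 18 were higher in the amygdala, where 27.1% of all probe sets were called higher, and 28 were lower, where 24.1% were called lower. A difference of at least 0.5 on the log2 scale was reached by 25 members (39.1%), against 18.5% of all probe sets. The 18 and the 25 include Syt6 and Vamp5, which were bright enough to be tested only through their amygdala level. Their hippocampus means (16.4 and 22.1 units) lay below the lowest mean kept (23.35). For 26 members (40.6%) the 12 amygdala arrays lay wholly above (10 genes) or wholly below (16 genes) the 12 hippocampus arrays, as they did for 13.2% of all probe sets. The median absolute difference was 0.42 for the members and 0.20 for all probe sets, and the signed medians were -0.06 and 0.02. All probe sets include dimmer ones of the same gene, whereas each member is the brightest of its gene. Over the brightest tested probe set of all 12468 genes with 1 symbol, 56.3% were called, 3951 higher and 3065 lower. Of these genes, 2570 passed with at least 0.5 and 2134 had regions without overlap, with a median absolute difference of 0.21. Log2 differences are of log2(intensity + 16), amygdala minus hippocampus, with folds on the same scale.

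**Figure D1:**
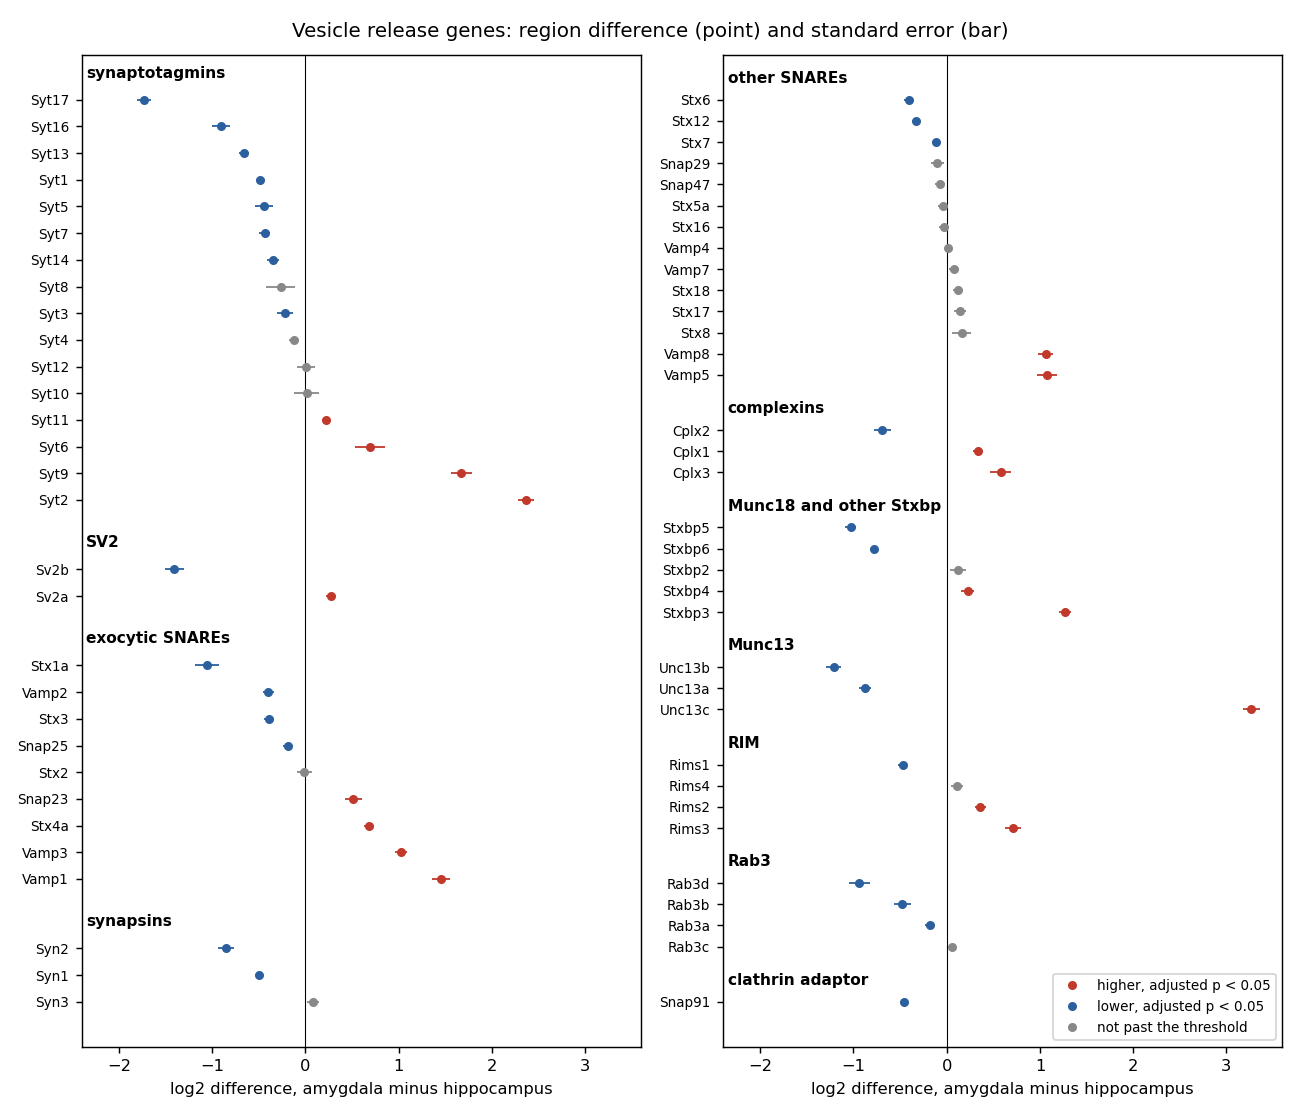
The log2 difference between amygdala and hippocampus (x axis, amygdala minus hippocampus, bars are standard errors) for the 64 tested release genes, grouped by family. Red points are the 18 genes higher in the amygdala and blue points the 28 lower at adjusted p under 0.05; grey points did not pass, and Unc13c stands furthest right at 3.27.

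Markers of cell types differed between the same arrays. The summed intensity of 4 excitatory neuron markers (Camk2a, Slc17a7, Neurod6, Tbr1) ran from 5574 to 6969 on the hippocampus arrays and from 1225 to 2527 on the amygdala arrays, and all 4 were lower in the amygdala. That of 5 inhibitory markers ran from 5867 to 6497 and from 10220 to 12650, with 4 higher and 1 (Sst) lower. Of 10 general neuronal markers, 3 were higher and 3 lower, with sums of 17870 to 20030 and 16240 to 18760. The 8 oligodendrocyte markers summed to 14230 to 19300 in the hippocampus and 36440 to 50670 in the amygdala, all 8 higher. Microglial markers (6 of 7 higher) summed to 2474 to 3212 and 3157 to 4685, and astrocyte markers (4 of 6 higher, 2 lower) to 11560 to 14110 and 11430 to 13730. The part of these shifts in the differences of the release genes was not tested, and in such tissue fewer cells of a type and less RNA per cell cannot be told apart.

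The 3 Munc13 genes, the priming factors, parted most. Unc13c, which encodes Munc13-3, an isoform best known from the cerebellum, ran from 109 to 187 units (median 149) on the hippocampus arrays and from 1246 to 2249 (median 1441) on the amygdala arrays. Every amygdala array was above every hippocampus array, and the means were 148 ± 27.5 and 1563 ± 313 (SD, n = 12 each), a 9.62-fold difference (log2 3.27 ± 0.0908 SE, adjusted p = 1.24e-21). Unc13a, encoding Munc13-1, the main priming factor of forebrain glutamatergic synapses, went the other way, from 356 to 490.4 units (median 424) in the hippocampus and from 173 to 317 (median 226) in the amygdala. Unc13b, encoding Munc13-2, ran from 189 to 275 units (median 226) and from 61.6 to 129 (median 85.5). The regions did not overlap for either gene. Unc13a was 1.83-fold lower in the amygdala (log2 -0.88 ± 0.0676, adjusted p = 4.39e-12) and Unc13b 2.32-fold lower (-1.21 ± 0.0815, adjusted p = 2e-13). Of the 3 Munc13 windows shown above, the CpG-poor one belongs to the paralog that was higher in the amygdala. The Stxbp3 window, of a gene also higher there, held 25 CpG.

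Among 16 synaptotagmins, 4 were higher in the amygdala and 8 lower. Syt1, Syt2 and Syt9 are the fast calcium sensors of release. Syt2 ran from 29.7 to 67.3 units (median 49.8) in the hippocampus and from 213 to 370.5 (median 328) in the amygdala, without overlap and 5.16-fold higher (log2 2.37 ± 0.0902, adjusted p = 6.63e-19). Syt9 ran from 38.6 to 86.3 (median 57.1) and from 137 to 362 (median 219), again without overlap and 3.19-fold higher (1.67 ± 0.112, adjusted p = 1.97e-13). Syt1, the brightest of the family and the sensor of most forebrain synapses, went the other way: 5452 to 8008 units (median 6531) in the hippocampus and 4301 to 5031 (median 4666) in the amygdala. Every amygdala array was below every hippocampus array, and Syt1 was 1.40-fold lower (-0.48 ± 0.0492, adjusted p = 1.52e-09).

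Several synaptotagmins with no established part as fast sensors of release were also lower in the amygdala. Syt17, also called B/K protein, ran from 569 to 690 units (median 652) in the hippocampus and from 133 to 267 (median 179) in the amygdala; the regions did not overlap and it was 3.31-fold lower (-1.73 ± 0.0747, adjusted p = 1e-17), the lowest difference among the members. Syt13 was 1.58-fold lower, also without overlap (-0.66 ± 0.0549, adjusted p = 2.28e-11). Syt16 was 1.87-fold lower (-0.90 ± 0.101, adjusted p = 9.7e-09), with the highest amygdala array at 342 units above the lowest hippocampus array at 318. Syt14 (-0.35), Syt7 (-0.44), the slow sensor of asynchronous release, Syt5 (-0.44) and Syt3 (-0.22) were lower too, with overlapping arrays. Syt11, which acts in vesicle retrieval, was 1.16-fold higher (0.22). Syt6 was higher as well (0.69 ± 0.161, adjusted p = 0.000623) at low levels, 2.82 to 32.6 units (median 13.5) in the hippocampus and 16.3 to 49.9 (median 36.9) in the amygdala. It was bright enough to be tested only through its amygdala level. Syt4, Syt8, Syt10 and Syt12 did not pass, with differences between -0.27 and 0.01.

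Of 9 SNAREs of plasma membrane exocytosis, 4 were higher in the amygdala, 4 lower, and 1 did not pass. The vesicle SNAREs Vamp1 and Vamp2, which drive release in different sets of neurons, stood on opposite sides. Vamp1 ran from 367 to 544 units (median 469) in the hippocampus and from 828 to 1836 (median 1307) in the amygdala, without overlap and 2.75-fold higher (1.46 ± 0.0953, adjusted p = 1.1e-13). Vamp2 ran from 1785 to 2277 (median 1946) and from 1271 to 1838 (median 1497), with a narrow overlap and 1.32-fold lower (-0.40). Of the target SNAREs, Stx1a, the plasma membrane syntaxin of nerve terminals, ran from 742 to 1080 units (median 885) and from 273 to 713 (median 439.5), without overlap and 2.08-fold lower (-1.05 ± 0.127, adjusted p = 4.01e-08). Snap25, its partner and the brightest of these SNAREs, ran from 7502 to 10433 (median 9631) and from 7106 to 9139 (median 8171) and was 1.14-fold lower (-0.19 ± 0.0541, adjusted p = 0.00456), with wide overlap. Stx3, a syntaxin also known from epithelial exocytosis, was lower without overlap (-0.39), and Stx2, another syntaxin found widely outside nerve terminals, did not pass (-0.01, adjusted p = 0.928).

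The other members of this family that were higher in the amygdala were Vamp3, Stx4a and Snap23. Vamp3 (cellubrevin), found in glia and recycling endosomes, ran from 309.5 to 452 units (median 379.5) in the hippocampus and from 653 to 911 (median 760) in the amygdala. Stx4a, a syntaxin of general plasma membrane exocytosis, ran from 145 to 219.8 (median 177) and from 252 to 356 (median 283). Neither gene's regions overlapped: Vamp3 was 2.04-fold higher (1.03 ± 0.0633, adjusted p = 2.81e-14) and Stx4a 1.60-fold (0.68 ± 0.0553, adjusted p = 1.38e-11). Snap23, the widely expressed relative of Snap25, was 1.43-fold higher (0.52 ± 0.0951, adjusted p = 3.73e-05) with overlap. Stxbp3 encodes Munc18c, the partner of syntaxin 4, and was higher along with it: 178 to 276 units (median 219) against 445 to 637 (median 551), without overlap and 2.41-fold (1.27 ± 0.0631, adjusted p = 2.29e-16). Beside these stand the oligodendrocyte markers given above, 8 of 8 higher, and the microglial ones, 6 of 7 higher; their part in these differences was not tested.

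**Figure D2:**
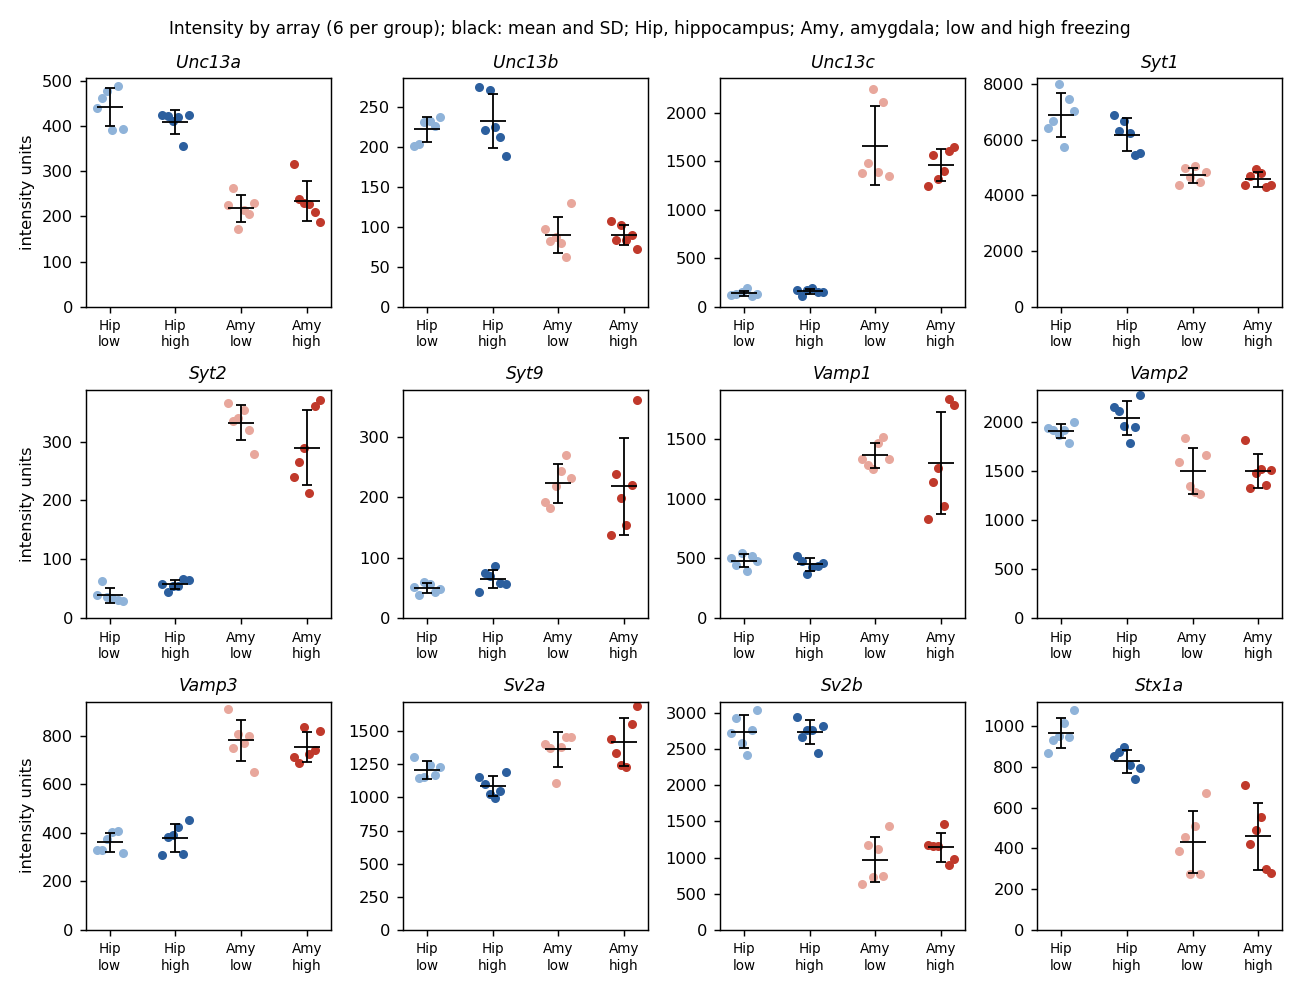
Intensity on each of the 24 arrays for 12 release genes (y axis, intensity units from 0; points are arrays, black marks the mean and SD of 6 arrays; Hip is hippocampus, Amy amygdala, each split by low and high freezing). Unc13c, Syt2, Syt9, Vamp1 and Vamp3 sit higher in the amygdala, Sv2a slightly so, and Unc13a, Unc13b, Syt1, Vamp2, Sv2b and Stx1a lower, while low and high freezing arrays of a region overlap for every gene shown.

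The other Stxbp proteins held inhibitors of SNARE assembly. Stxbp5 (tomosyn) ran from 403.5 to 518 units (median 459) in the hippocampus and from 169 to 283 (median 221) in the amygdala. Stxbp6 (amisyn), the brightest of the family, ran from 1084 to 1537 (median 1288) and from 679 to 825 (median 734). Both lay apart without overlap, Stxbp5 2.04-fold lower (-1.03 ± 0.0594, adjusted p = 6.47e-15) and Stxbp6 1.72-fold lower (-0.78 ± 0.0438, adjusted p = 3.48e-15). Stxbp4, a syntaxin 4 binding protein, was 1.17-fold higher (0.23), and Stxbp2, encoding Munc18b, did not pass (0.12, adjusted p = 0.255).

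Complexins parted as well. Cplx2, which predominates in excitatory forebrain neurons, ran from 2729 to 4253 units (median 3372) in the hippocampus and from 1523 to 2912 (median 2171) in the amygdala, 1.61-fold lower (-0.69 ± 0.0923, adjusted p = 2.45e-07). Cplx1, the brightest of the family, ran from 3343 to 4226 (median 3853) and from 3886 to 5440 (median 4929), 1.26-fold higher (0.33 ± 0.0507, adjusted p = 2.14e-06). For both genes the regions overlapped at their edges. Cplx3, known from retinal ribbon synapses, was 1.49-fold higher (0.58 ± 0.116, adjusted p = 0.000115), from a mean of 43.8 ± 12.1 to 72.8 ± 16.3 units (SD, n = 12 each).

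The SV2 proteins, vesicle glycoproteins that the botulinum A toxin uses as receptors, showed opposite signs. Sv2b ran from 2418 to 3039 units (median 2764) in the hippocampus and from 630.4 to 1468 (median 1138) in the amygdala, without overlap and 2.65-fold lower (-1.40 ± 0.0972, adjusted p = 3.95e-13). Sv2a, carried by nearly all neurons, ran from 996 to 1309 (median 1152) and from 1107 to 1690 (median 1396), 1.21-fold higher (0.27) with overlap. Sv2c was too dim to be tested with the rest.

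Of the 4 RIM genes of the active zone, 2 were higher in the amygdala and 1 was lower. Rims1, the brightest RIM gene, ran from 863 to 1354 units (median 1157) in the hippocampus and from 735 to 854 (median 829) in the amygdala; every amygdala array was lower, and the difference was 1.39-fold (-0.47 ± 0.0494, adjusted p = 2.5e-09). Rims2, which encodes the second long RIM, was 1.28-fold higher (0.36). Rims3, a short RIM without the Rab3-binding end, ran from 114 to 207 (median 179) and from 220 to 441 (median 281), without overlap and 1.63-fold higher (0.71 ± 0.084, adjusted p = 2.92e-08). Rims4 did not pass (0.11). Of the 4 Rab3 genes, 3 were lower and none higher: Rab3d 1.91-fold (-0.94 ± 0.11, adjusted p = 2.43e-08, no overlap), Rab3b 1.39-fold (-0.48) and Rab3a, the main Rab3 of brain and the brightest, 1.14-fold (-0.18 ± 0.0528, adjusted p = 0.0046). Rab3c did not pass (0.06).

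Of the 3 synapsins, which hold vesicles in the reserve pool, 2 were lower in the amygdala. Syn2, the brightest, ran from 1840 to 2410 units (median 2068) in the hippocampus and from 747 to 1711 (median 1159) in the amygdala, without overlap and 1.80-fold lower (-0.85 ± 0.0848, adjusted p = 1.06e-09). Syn1 ran from 1590 to 1968 (median 1777) and from 1071 to 1455 (median 1218), likewise apart and 1.41-fold lower (-0.50). Syn3 did not pass (0.08). The 2 genes shown above with a full cyclic AMP response element in their window stood on opposite sides, Stxbp3 higher and Syn1 lower.

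Of the 14 other SNAREs tested, most of them known from inner membranes, 5 passed (35.7%, against 51.2% of all probe sets), 2 higher and 3 lower. Vamp8 (endobrevin) ran from 89.7 to 162 units (median 121) in the hippocampus and from 207 to 319 (median 283) in the amygdala, without overlap and 2.08-fold higher (1.06 ± 0.0847, adjusted p = 9.2e-12). Vamp5, best known from muscle, was dim, at 5.74 to 35.5 (median 21.7) and 43.2 to 82 (median 60.3), and 2.10-fold higher (1.07 ± 0.107, adjusted p = 9.49e-10). It was bright enough to be tested only through its amygdala level. Stx6 of the trans-Golgi network (-0.40) and the endosomal Stx12 (-0.33) and Stx7 (-0.11) were lower. Snap47, the brightest of this group, ran from 4512 to 6196 and from 4504 to 6009 units and did not pass (-0.07, adjusted p = 0.241). Stx5a, Stx8, Stx16, Stx17, Stx18, Snap29, Vamp4 and Vamp7 lay between -0.10 and 0.16 without passing. Snap91, the clathrin adaptor AP180, was lower without overlap (-0.46).

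Other probe sets of the same genes gave a check that the choice of the brightest did not use. The 46 called members had 56 other probe sets bright enough to be tested, on 28 genes. Of these, 54 shared the sign of the brightest and 47 were called in the same direction, with 0 called in the opposite one. The 2 of opposite sign were a dim Rims2 probe set (-0.07) and a Snap25 probe set (0.12, adjusted p = 0.385). Sizes differed in both directions. Syt1 was 1.40-fold lower at its brightest probe set and 2.09-fold at another, whereas Syt2 was 5.16-fold higher at its brightest and 2.02-fold at another. Members not called were outside this check, and some had another probe set that was called, such as Syt4 (-0.40) and Snap47 (-0.22). The 4 genes left out as dim were Cplx4 (means of 11.3 in the hippocampus and 7.00 in the amygdala), Stx11 (16.6 and 16.8), Stx19 (5.21 and 6.19) and Sv2c (12.4 and 23.9). Without the filter Sv2c was higher in the amygdala (0.48, adjusted p = 0.00182).

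Small differences depended on the setting. Of the 46 calls, 41 held in the same direction under every alternative that tested the gene, leave-one-out fits included, and none turned in sign. Syt3 lost its call without a filter on dim probe sets (adjusted p = 0.0554) and without any 1 of amygdala low 5, amygdala high 8, 10 or 11, hippocampus low 1 or 6, or hippocampus high 9 or 12 (0.0538 to 0.0778). Snap25 (-0.03, adjusted p = 0.715) and Stx3 (-0.26, adjusted p = 0.0544) lost theirs when all probe sets of a gene were averaged, Stx7 with quantile normalization (-0.09, adjusted p = 0.0633) and Stxbp4 with arrays centred on their median (0.15, adjusted p = 0.0752). Conversely, Snap47 was called lower with quantile normalization (-0.17, adjusted p = 0.0021), median centring (-0.15, adjusted p = 0.0187) and averaged probe sets (-0.15, adjusted p = 0.00183). Vamp4 was called lower with averaged probe sets (-0.09, adjusted p = 0.0417), against 0.02 for its brightest probe set. Syt4 was called lower with median centring (adjusted p = 0.00613) and averaged probe sets (2.92e-05), and Snap29 with median centring (0.0435). Called higher were Rab3c (0.11, adjusted p = 0.00988) and Stx18 (0.0474) with quantile normalization, Stx18 with the dimmest 60% left out (0.0437), and Stx17 (0.0295) and Stxbp2 (0.27, adjusted p = 0.00409) with averaged probe sets.

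Single arrays decided 4 further calls. Syt8 was called lower without hippocampus high 12 (-0.40, adjusted p = 0.00652, against -0.27). Syt4 was called lower without amygdala low 6, amygdala high 7 or 10, or hippocampus high 11 (adjusted p of 0.0185 to 0.0454). Stx17 was called higher without amygdala low 5 or 6 or hippocampus low 1 (0.0399 to 0.0492). Stx18 was called higher without any 1 of amygdala low 3 or 4, amygdala high 10 or 12, hippocampus low 5 or 6, or hippocampus high 8 or 10 (0.0178 to 0.0499).

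Genes of the steps around fusion were counted in the same way. Among 13 tested vesicle proteins, 4 were higher in the amygdala and 7 lower (median -0.14). The vesicular glutamate transporter Slc17a7 was 4.77-fold lower (-2.26), the GABA transporter Slc32a1 3.92-fold higher (1.97) and the second glutamate transporter Slc17a6 3.20-fold higher (1.68). Among 19 genes of priming and the active zone, 3 were higher and 11 lower (median -0.27), led by Cadps2 (-1.57), a priming factor of dense core vesicles, the liprin Ppfia2 (-1.47) and the scaffold Erc2 (-1.07). Of 5 genes of SNARE disassembly, 4 were lower and none higher (median -0.37), led by Napb (-0.46), Napg (-0.41) and the ATPase Nsf (-0.37). Of 22 endocytosis genes, 7 were higher and 10 lower (median -0.13), with Dnm3 (1.06), Amph (-0.83) and Sh3gl3 (0.73) furthest from 0.

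The spread between arrays was larger in the amygdala for 37 of the 64 members and larger in the hippocampus for 27. The share over all probe sets was not counted, so this number cannot be called high or low for release genes. The SD of log2(intensity + 16) over 12 arrays was 0.478 for Stx1a in the amygdala and 0.15 in the hippocampus, 0.381 and 0.1 for Sv2b, 0.33 and 0.163 for Vamp1, and 0.375 and 0.174 for Syt16. It went the other way for Rims1 (0.065 in the amygdala and 0.191 in the hippocampus), Syt1 (0.083 and 0.167), Snap25 (0.099 and 0.168) and Syt8 (0.308 and 0.517). Vamp1 was lowest on amygdala high 7 (828 units) and highest on high 11 (1836) and high 12 (1786). Stx1a was highest on high 7 (713) and low 6 (674) and lowest on low 3 (273), low 5 (275) and high 12 (278). On high 7 and high 12, Vamp1 and Stx1a were thus extreme in opposite directions.

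Markers varied on the same arrays. Slc17a6 ran from 219 units on high 7 to 1190.5 on high 12, Zic1, of the thalamic and hypothalamic list, from 411 on high 7 to 1688 on high 12, and Pvalb from 1092 on high 10 to 2385 on high 11. Other markers fell from high 7 to high 12. In the central and striatal list, Penk (4738.5 to 1641), Drd1 (834 to 204), Drd2, Ppp1r1b and Tac1 fell, whereas Isl1 and Prkcd rose. In the inhibitory list, Sst (1763 to 1261) and Slc32a1 (1633 to 1322) fell, whereas Gad1, Gad2 and Pvalb rose. Stx1a was lowest, at 273 to 298 units, on low 3, low 5, high 11 and high 12, where Slc17a6 was highest (686 to 1190.5). It was highest (713) on high 7, where Slc17a6 was lowest. The order was not strict in between. Low 4 had 584 units of Slc17a6 and 1046 of Zic1 with Stx1a at 509, and low 6 had 527 and 1147 with Stx1a at 674. The part of these markers in the spread of the release genes was not tested. Leaving out any 1 array kept the region counts between 45 and 48 of the 64 members.

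**Figure D3:**
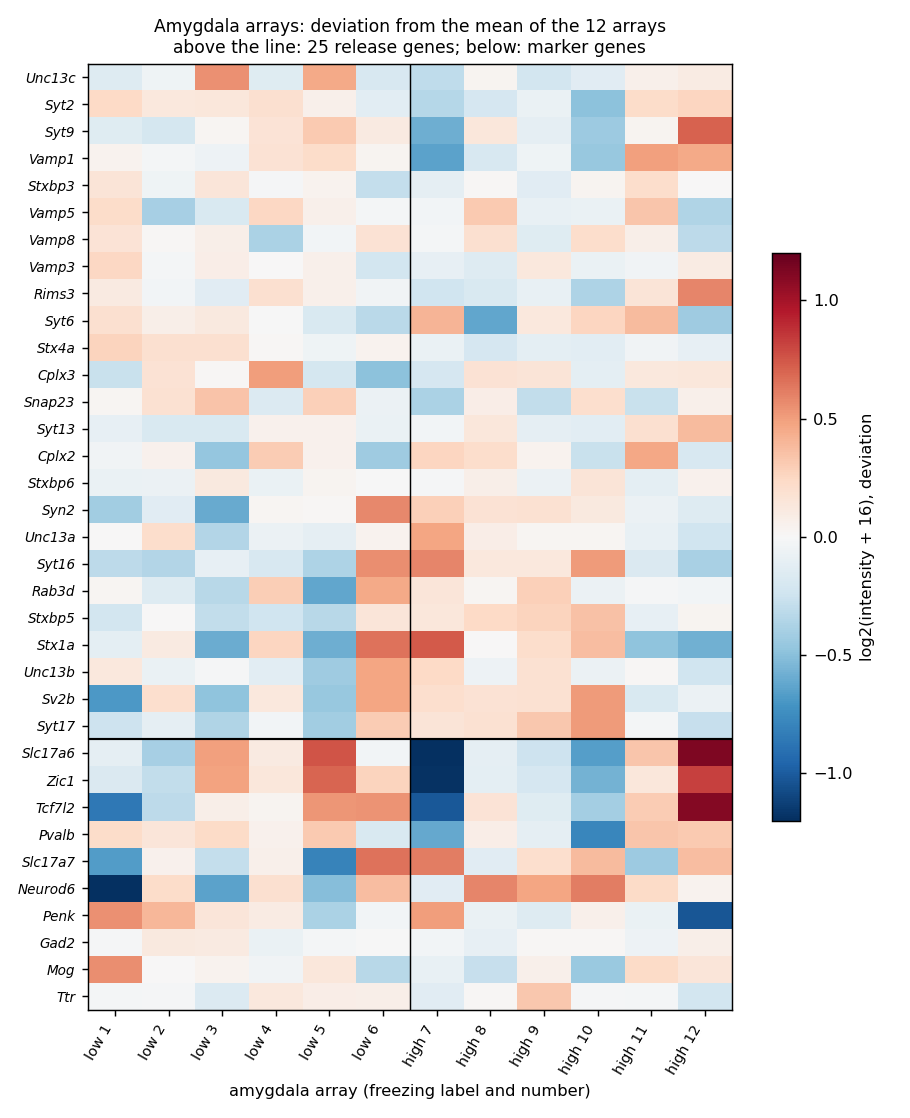
Deviation of each of the 12 amygdala arrays (columns, low freezing left of the line and high freezing right) from their mean, in log2(intensity + 16), for the 25 release genes that differed by at least 0.5 between regions (above the line, ordered from highest to lowest region difference) and 10 marker genes (below). High 7 is low for Vamp1 (828 units) and high for Stx1a (713), while high 12 is the reverse (1786 and 278); colours end at the limits of the scale.

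No release gene passed the threshold between high and low freezing animals. In the hippocampus, 0 of 64 members passed, against 0.0518% of all probe sets. In the amygdala, 0 passed, against 0.0555%, and for the difference between the regional freezing differences 0 passed, as did 0% of all probe sets. At an unadjusted limma p under 0.05 there were 12 members in the hippocampus (18.8%, against 11.8% of all probe sets), 8 in the amygdala (12.5%, against 10.7%) and 5 for the difference between regions (7.81%, against 6.06%). In neither region did the 6 high freezing arrays lie wholly to 1 side of the 6 low freezing arrays for any member, as they did for 0.818% of all probe sets in the hippocampus and 0.551% in the amygdala. The median absolute freezing difference of the members was 0.10 in the hippocampus and 0.09 in the amygdala, and that of all probe sets was 0.10 and 0.09.

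In the hippocampus, the smallest p belonged to Syt2, at 29.7 to 62.5 units (median 34.5) on the low freezing arrays and 45.2 to 67.3 (median 56.4) on the high freezing ones. It was 1.36-fold higher in high freezing animals (log2 0.45 ± 0.128, adjusted p = 0.157), and the overlap came from low freezing array 2, at 62.5. Without that array the adjusted p was 0.0467 (0.56), so this 1 array decided the call; over all alternatives the adjusted p ran from 0.0467 to 0.32. Vamp5 ran from 19.2 to 35.5 (median 29.1) and from 5.74 to 24.1 (median 15.5), 1.44-fold lower (-0.52 ± 0.151, adjusted p = 0.157). These hippocampus levels of Vamp5 were dim, and it was tested only through its amygdala level. Rims1 (-0.23, adjusted p = 0.176), Rims3 (-0.36, adjusted p = 0.205) and Stx4a (-0.22, adjusted p = 0.234) came next, all with lower means in high freezing animals and overlapping arrays. The other tested Rims1 probe set was not lower (0.04, adjusted p = 0.882).

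In the amygdala, Stxbp5 had the smallest p, at 169 to 243 units (median 183) on the low freezing arrays and 203 to 283 (median 251) on the high freezing ones. It was 1.24-fold higher (0.31 ± 0.084, adjusted p = 0.132), with overlap. Without low freezing array 6 the adjusted p was 0.0475 (0.37), so here too 1 array decided the call; over all alternatives it ran from 0.0475 to 0.355. The other tested Stxbp5 probe sets gave 0.06 (adjusted p = 0.847) and 0.27 (adjusted p = 0.369). Rab3b ran from 173 to 279.7 (median 219) and from 106 to 226 (median 174), 1.31-fold lower (-0.39 ± 0.13, adjusted p = 0.248). Stx4a (-0.22, adjusted p = 0.287), Syt17 (0.29, adjusted p = 0.294) and Stx2 (0.28, adjusted p = 0.379) followed. After adjustment over all probe sets, none of these differences passed.

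Stx4a and Vamp4 were the 2 members with an unadjusted limma p under 0.05 and the same sign in both regions. They were picked out after their values were seen. The share of all probe sets that meets this rule was not counted, so the number of members cannot be called high or low. Stx4a ran from 168 to 219.8 units (median 189) and from 145 to 185 (median 159) in the hippocampus, low against high freezing, and from 282 to 356 (median 319) and from 252 to 284.5 (median 271) in the amygdala. Vamp4, a SNARE of the trans-Golgi network, was higher in high freezing animals by 0.13 (adjusted p = 0.319) and 0.12 (adjusted p = 0.419) at its brightest probe set. Its other tested probe sets had the opposite sign in both regions. In the hippocampus and amygdala, 1 gave -0.10 and -0.05, and the other -0.16 and -0.13. For the difference between the regional freezing differences, Syt2 had the smallest p and the largest size (-0.66 ± 0.18, adjusted p = 0.756). Next in order of p, not of size, were Syt17 (0.41), Vamp5 (0.55), Stxbp5 (0.25) and Syt10 (0.55), all with adjusted p of 0.772 or above. No gene of the vesicle protein, active zone, disassembly or endocytosis lists passed in a freezing comparison.

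**Figure D4:**
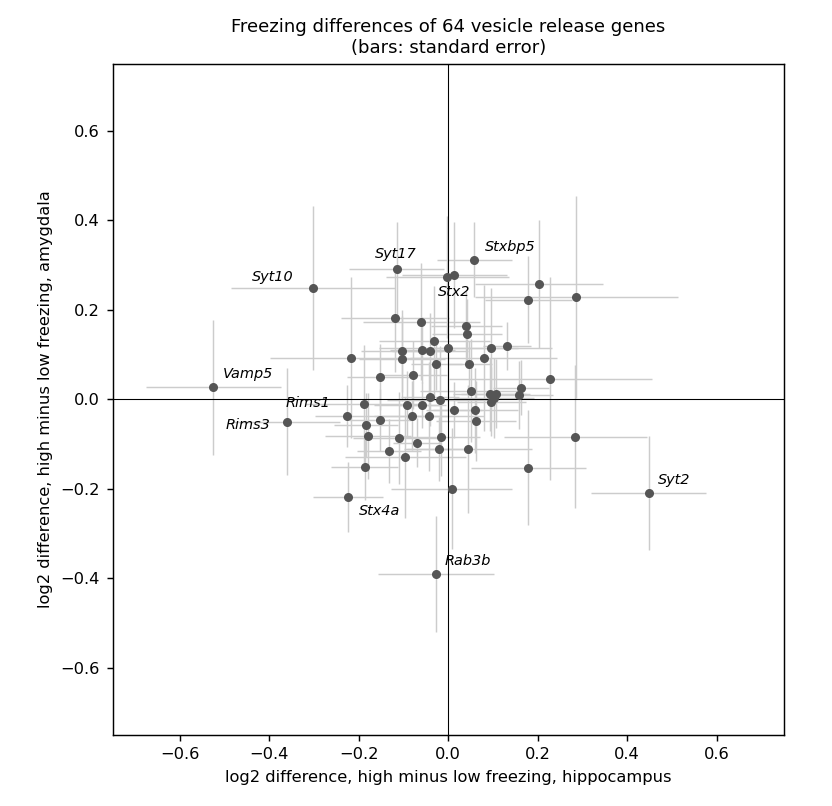
High minus low freezing log2 difference in the hippocampus (x axis) against that in the amygdala (y axis) for the 64 tested release genes, with bars of 1 standard error. The points scatter around 0 on both axes; Syt2 (0.45) and Vamp5 (-0.52) stand furthest out in the hippocampus and Rab3b (-0.39) and Stxbp5 (0.31) in the amygdala, and none passed the threshold.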

How the data were processed

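The deposited table holds 1 linear intensity value per probe set and array; the sources used here do not name the software. Each array's mean without the top and bottom 2% was 150, and array medians ran from 36.7 to 43.4. Values were analysed as log2(intensity + 16), computed here from the deposited intensities. The 64 control probe sets and the dimmest 40% were left out, which kept 27022 (lowest mean 23.35). limma 3.58.1 in R 4.3.3 fitted 1 mean per group over 24 arrays with an intensity trend and 20 residual degrees of freedom; two-sided p-values were adjusted after Benjamini and Hochberg across every probe set kept, at a threshold of 0.05. The model was tested on simulated data.

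The members, lists and comparisons were chosen with earlier results of these data known. Statistics are given for members past the threshold by at least 0.5, the brightest of each family, and the 5 smallest p-values per freezing comparison; related genes are named by the 3 largest differences of their list. Symbols came from the platform annotation, promoters from RefSeq. Alternatives changed the offset, normalization, filter, variance prior, fitted arrays, replicate block and probe set choice.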

Additional observations from a re-analysis of the deposited data

Results flagged for a closer look

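Each group of 6 arrays was searched for an array that stands apart by Dixon's test, which sets its gap to the nearest value against the range of the group. Of 256 groups (64 genes in 4 groups), 16 held such an array, 9 the highest and 7 the lowest of its group; chance gives about 1 in 20 groups.

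In the hippocampus of low freezing animals, Rims2 was lowest on array 3 (390.9 units, nearest 449), as was Stx16 (438, nearest 605). On array 2, Stxbp4 was highest (244, nearest 193), as was Syt2 (62.5, nearest 38.7). In high freezing animals, array 7 was highest for Rab3c (2091, nearest 1858) and Stx12 (1709, nearest 1443). Array 9 was highest for Syt7 (1030, nearest 929) and lowest for Syt10 (2.22, nearest 20.7). Unc13a was lowest on array 11 (356, nearest 412) and Snap23 on array 12 (54.9, nearest 78.4).

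In the amygdala of low freezing animals, array 3 was lowest for Rims1 (773, nearest 829) and Sv2a (1107, nearest 1374). Array 6 was highest for Syt16 (336, nearest 207) and Syt5 (287, nearest 219), and array 1 for Syt12 (76.8, nearest 52.7). In high freezing animals, Snap47 was highest on array 9 (6009, nearest 5067).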

How the results depend on the processing

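The region count of 46 members stayed between 43 and 49 over all alternatives, with 43 when the dimmest 60% were left out, which tests fewer members, and 49 with a gene's probe sets averaged. None of the 46 region calls changed sign; of the genes not called, Vamp4 turned from 0.02 to -0.09 with its probe sets averaged. The freezing counts of 0 ran from 0 to 1 when 1 array was left out, in the hippocampus and in the amygdala alike, and the difference between regions stayed at 0. The labels do not say if the same number, 1 to 12, stands for the same animal in both regions. Same-number arrays of both regions correlated between -0.0791 and 0.0865, 0 of 12 pairs above 0.1. Within their freezing group, 4 of 12 hippocampus arrays correlated best with their own number. Low correlations over many probe sets cannot exclude shared animals, so the pairing remains unknown. With the replicate block the region count was 47 as a random term and 46 as a fixed term; Stx18 was the added call (adjusted p = 0.0498). Dim members such as Syt6, Syt10 and Vamp5 sit near the background, which limits their precision.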
